A study of Mus musculus with 2 samples.

Results

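The Retnlg-high neutrophils had the most Retnlg, Mmp8 and Ly6g RNA among lung neutrophils below set limits of immature granule and interferon-stimulated transcripts. They still held some granule RNA, with an Ngp UMI in 58.9% of them in each library. They were 3643 of 16995 cells and of 8324 neutrophils in the lungs of mice with 4T1 tumors, 2573 in the library from saline-treated mice and 1070 in the library from nanoparticle-treated mice. 4T1 is a mouse mammary carcinoma line that spreads to the lung, and the nanoparticles (NPs) were cargo-free particles of the polymer poly(lactide-co-glycolide) (PLG). The mice of both groups were female BALB/cJ animals aged 12 weeks that had received 100000 4T1 cells 14 days earlier, and all carried a tumor. Intravenous saline or PLG NPs were given every 3 days from day 1, and the lungs of 4 mice (labels) or 5 mice (the study's methods) were pooled for each library. There was 1 library per treatment and no replicate, so no test was made. All intervals are 95% intervals that cover counting error only and say nothing about the spread between mice.

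Neutrophils leave the bone marrow as they mature and lose, in order, the transcripts of their successive granule types. Azurophil granules are made first. Specific granules, made next, hold Ngp, Camp (cathelicidin), Ltf (lactoferrin) and Lcn2 (lipocalin 2), and gelatinase granules, made last, hold Mmp9. Retnlg, which encodes a secreted resistin-like protein, and Ly6g, the surface protein used to sort mouse neutrophils, are genes of the neutrophil lineage. In the activated or aged stage cytokine and chemokine genes such as Il1b dominate. Tumors such as 4T1 are known to drive the release of many neutrophils into blood and lung.

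The cells were selected on measured values, which are therefore given as a description. Cells had 500 to 5000 detected genes and under 7.5% mitochondrial RNA. A neutrophil had at least 5% of its unique molecular identifiers (UMIs, 1 for each captured transcript molecule) on S100a8 and S100a9, at least 2 UMIs on Csf3r, Cxcr2, Retnlg, Ly6g, Mmp8 and Ngp together, and at most 1 UMI on F13a1, Ccr2, Cd79a, Cdh5 and Cd3e together. This gave 5342 neutrophils in the saline library, or 61.7% of its cells (60.6% to 62.7%), and 2982 in the NP library, or 35.8%. Granule-high cells (Ngp, Camp and Ltf at least 1% of UMIs, 435 saline and 334 NP) and interferon-high cells (Isg15, Rsad2, Ifit1, Ifit3 and Cxcl10 at least 0.3%, 35 saline and 235 NP) were then set aside. Of the 7285 remaining neutrophils, those at or above the median share of Retnlg, Mmp8 and Ly6g over both libraries were kept, and the others are called Retnlg-low.

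The dividing share was 0.597% of UMIs. The 50 cells just inside had shares of 0.597% to 0.616%, the 50 cells just outside had 0.578% to 0.597%, and 645 of the remaining neutrophils (8.85%) lay within 20% of the dividing share. The shares formed 1 continuous range in each library, so the class is a range of cells and not a separate type. The medians of the libraries themselves were 0.677% for saline and 0.437% for NP, and the dividing share lay between them. Of 21 cell barcodes that both libraries shared, 2 were Retnlg-high in both.

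**Figure D1:**
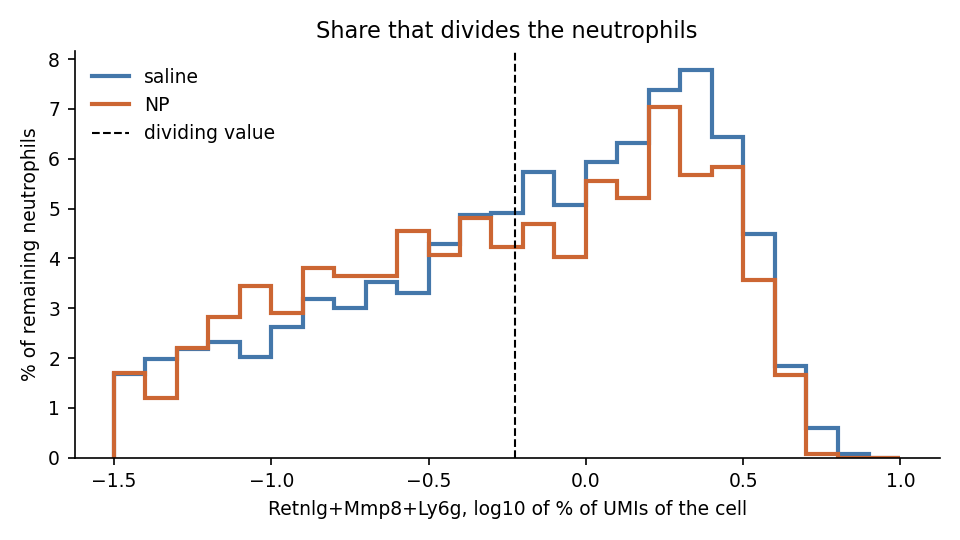
Share of UMIs on Retnlg, Mmp8 and Ly6g in neutrophils that were neither granule-high nor interferon-high, as the percentage of those cells of each library (y axis) against log10 of the share in % (x axis); cells at or under -1.5 (8.42% of saline and 13.6% of NP cells) are not drawn. Both curves run across the dashed dividing value of 0.597% without a gap, and more of the saline cells lie to its right (52.8% against 44.3%).

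Retnlg-high neutrophils made up 29.7% of the saline cells (28.7% to 30.7%) and 12.8% of the NP cells (12.1% to 13.6%), a log2 ratio of −1.21 (−1.30 to −1.12). Within the neutrophils they were 48.2% in saline (46.8% to 49.5%) and 35.9% in NP (34.2% to 37.6%), a log2 ratio of −0.42 (−0.50 to −0.34). The class was thus a smaller part both of the lung cells and of the neutrophils in the NP library. Retnlg-low neutrophils were 43.0% of saline neutrophils and 45.0% of NP neutrophils. Granule-high cells were 8.14% and 11.2%, and interferon-high cells were 0.655% and 7.88%.

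**Figure D2:**
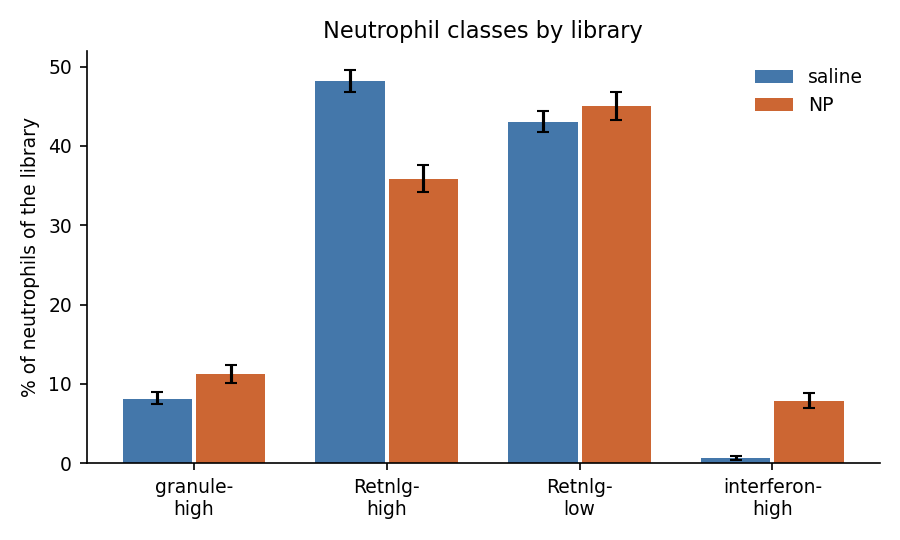
Share of each of 4 neutrophil classes among the neutrophils of its library in %, for saline and NP; bars are single libraries and whiskers are exact binomial 95% intervals, which cover counting error only. The Retnlg-high bar is 48.2% in saline and 35.9% in NP, while the Retnlg-low bars are 43.0% and 45.0%.

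Granule-high, Retnlg-high and Retnlg-low cells were compared on 10 immature and 12 late neutrophil genes. Levels are given in CPM (UMIs per 1000000 UMIs summed over the cells of a class). The rule genes Ngp, Camp and Ltf were left out of the counts. The Retnlg-high level lay between those of granule-high and Retnlg-low cells for 6 of 7 immature genes in saline and 5 of 7 in NP. The same held for 12 of 12 late genes in saline and 11 of 12 in NP. The share of all genes lying between is not given here, so the counts do not show that these lists stand out. The exceptions were Fcnb (ficolin B) in both libraries, which was at or close to 0 in both later classes, Chil3 in NP, and Cd83 in NP, which had at most 1.95 CPM in the 3 classes. The level of Lcn2 in saline was 16433 CPM in granule-high, 5251 CPM in Retnlg-high and 1853 CPM in Retnlg-low cells, and in NP it was 18014, 4689 and 1349 CPM. Il1b, encoding interleukin-1β, ran the other way, with 641, 6162 and 16224 CPM in saline and 446, 7656 and 18737 CPM in NP. The order of the 3 classes was thus the same in both libraries for these genes, with the Retnlg-high cells in the middle. Ngp, Camp and Ltf were used to set the granule-high cells aside, and their order is no finding. Retnlg, Mmp8 and Ly6g then divided the rest. Genes that vary with any of these had to follow the cuts, so the orders are a description and no check of the name.

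Of the 5 marker genes given for these cells, 4 had their highest level in them. Retnlg had 18626 CPM in the Retnlg-high cells of the saline library and 18600 CPM in those of the NP library, against 5862 and 5853 CPM in granule-high and 2086 and 1823 CPM in Retnlg-low cells. Mmp8, the neutrophil collagenase, had 924 and 888 CPM. Prok2, a secreted prokineticin, had 915 and 856 CPM, and in granule-high cells 407 and 230 CPM. These genes had nearly the same level in the Retnlg-high cells of both treatments. Ly6g was highest in the granule-high cells (1375 CPM in saline and 1816 CPM in NP) and had 565 and 761 CPM in Retnlg-high cells, a log2 ratio of 0.43 (0.39 to 0.47). Stfa2, a stefin A cysteine protease inhibitor, was the marker with the largest difference, at 3483 CPM in saline and 1664 CPM in NP. Retnlg, Mmp8 and Ly6g chose the cells, so these levels are a description.

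**Figure D3:**
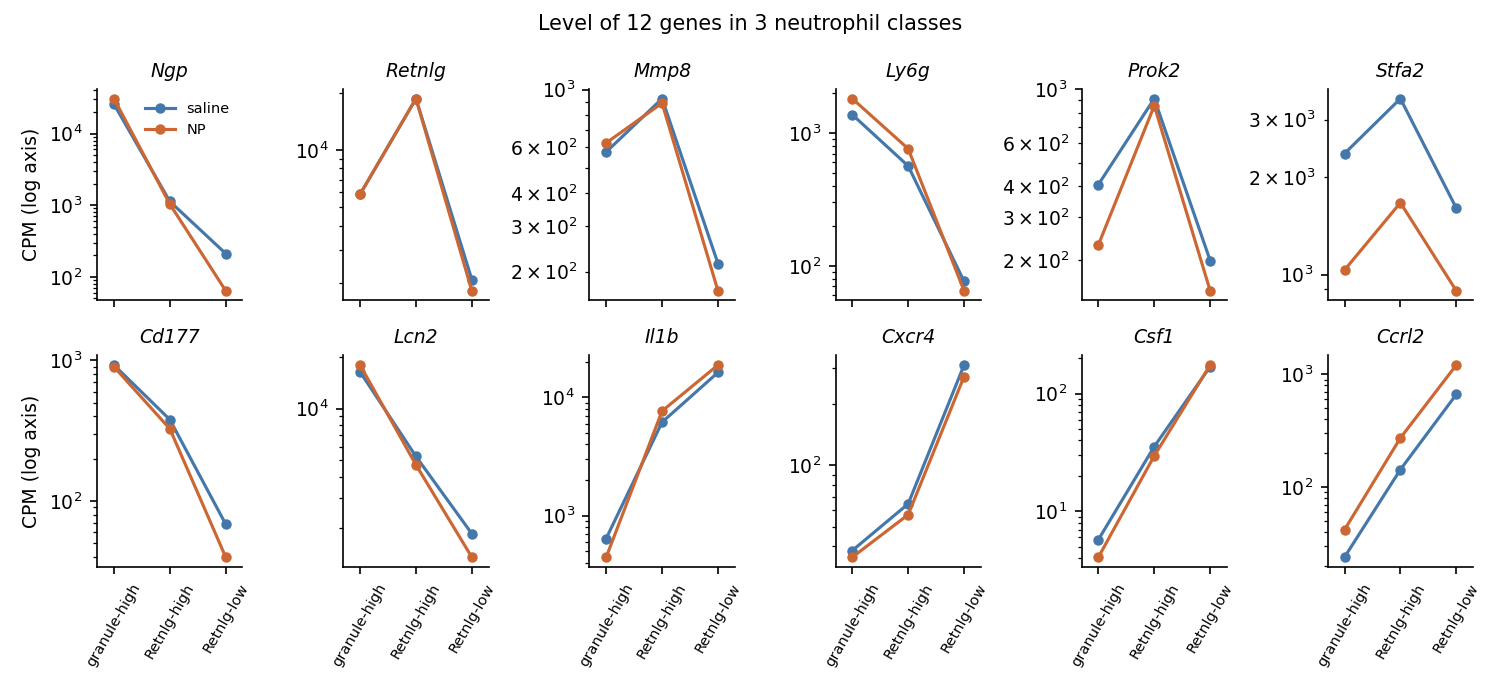
Level of 12 genes in granule-high, Retnlg-high and Retnlg-low neutrophils of the saline and NP libraries in CPM, each on its own log axis; points are single libraries. Retnlg, Mmp8, Prok2 and Stfa2 peak in the Retnlg-high cells, Ngp, Ly6g, Cd177 and Lcn2 are highest in the granule-high cells, and Il1b, Cxcr4, Csf1 and Ccrl2 are highest in the Retnlg-low cells.

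Free RNA was present in both libraries. After thinning of each cell to 2000 UMIs, which left out 19 saline and 1 NP Retnlg-high cells, Ly6g had a UMI in 42.0% of saline and 52.0% of NP Retnlg-high cells (67.2% and 77.0% before thinning). In B cells (at least 5 UMIs on Cd79a, Cd79b and Ms4a1 together), which should lack the gene, it had one in 2.82% and 2.29%. A typical B cell held 4649 UMIs in saline and 4572 UMIs in NP (medians), fewer than a Retnlg-high cell with 9033 and 8174.5 UMIs. For Stfa2 the shares were 67.8% and 41.3% in Retnlg-high cells (76.7% and 53.6% before thinning) and 7.53% and 1.22% in B cells. Ly6g helped to choose the cells, so its shares are a description. Stfa2 was not used by the rule, and its shares were well above those that free RNA gave in B cells.

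The Retnlg-high cells held more RNA than the Retnlg-low cells. Their median was 9033 UMIs and 1746 detected genes in saline and 8174.5 UMIs and 1542 genes in NP, against 4179 UMIs in saline and 4160 UMIs in NP for Retnlg-low cells. S100a8 and S100a9, the subunits of calprotectin, made up a median of 27.8% of the UMIs of a Retnlg-high cell in saline and 31.3% in NP. The next genes by UMIs were Wfdc17, Tmsb4x (thymosin β4), Retnlg, Malat1 and S100a6 when the libraries were averaged. Wfdc17, a secreted whey acidic protein family member, had 24385 CPM in saline and 19795 CPM in NP.

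Against the Retnlg-low neutrophils, and leaving out the genes used to select the cells, the 10 highest genes included Cd177, Ifitm6 and Mgst2. Cd177, a surface protein of neutrophils, had 379 CPM in Retnlg-high and 68.3 CPM in Retnlg-low cells of the saline library, and 326 and 39.8 CPM in the NP library, log2 ratios of 2.47 and 3.03. Ifitm6 had 3616 and 624 CPM in saline and 3163 and 340 CPM in NP, log2 ratios of 2.54 and 3.22. Mgst2, a microsomal glutathione transferase, Ggt1, a γ-glutamyl transferase, and Serpinb1a, an inhibitor of neutrophil serine proteases, had log2 ratios of 2.57, 2.51 and 2.13 in saline and 4.00, 3.72 and 2.97 in NP. Adpgk, Prok2, Ceacam10, Tmem256 and Ly6c2 completed the 10 highest genes. These genes varied with the markers that divided the cells, so differences of this kind had to appear.

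The 10 lowest genes included Cxcr4, Csf1 and Ccrl2. Cxcr4, the receptor that returns aged neutrophils to the marrow, had 64.7 CPM in Retnlg-high and 311 CPM in Retnlg-low cells of the saline library, and 57.2 and 273 CPM in the NP library, log2 ratios of −2.26 and −2.25. Csf1, the macrophage growth factor, had 35.5 and 169 CPM in saline and 29.6 and 175 CPM in NP. Ccrl2, a chemerin-binding receptor, had 143 and 664 CPM in saline and 273 and 1211 CPM in NP. Pmaip1, which encodes the cell death protein Noxa, had log2 ratios of −2.50 and −3.10. Scimp, Clec4n, Clec4a3, Dusp2 and Atf3 also stood among the 10 lowest, with log2 ratios of −2.11 to −2.93 in saline. Lyz1 had the lowest ratios, −4.41 and −6.14. In the NP library the ratio of Lyz1 changed its sign under 4 small changes of the rule, the largest to 4.49. In saline it ranged from −5.70 to −0.36 over 25 alternatives and was past 2-fold under 22 of them.

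Of 5031 genes compared, 67 were at least 2-fold higher in Retnlg-high than in Retnlg-low cells in both libraries (1.33%) and 473 were at least 2-fold lower in both (9.4%). The median log2 ratio of all these genes was −0.53 in saline and −0.54 in NP, a shift of the whole scale beside the larger S100a8 and S100a9 share, and centred on that median the counts were 187 higher and 79 lower. Relative to this shift the specific granule list stood high, with medians of 1.15 in saline and 1.28 in NP and 4 of 6 genes at least 2-fold higher in both libraries, leaving out the rule genes Ngp, Camp and Ltf (1.50 and 1.80 with 7 of 9 genes when they are included). The stefin A list had medians of 1.11 and 0.90 with 3 of 7 genes at least 2-fold higher (1.11 and 0.98 with 3 of 6 genes without Cstb, stefin B). The TNF and NF-κB response list had medians of −1.07 and −1.18 with 17 of 33 genes at least 2-fold lower, and the IFN-γ response list had −0.88 and −1.16 with 7 of 20 genes lower. The list that reports stress during tissue dissociation, which shares Junb with the TNF list, had −0.91 in both libraries with 6 of 19 genes lower. The migration receptors, at −0.44 and −0.39, lay close to the median of all genes. Free RNA was estimated from the epithelial genes Sftpc, Scgb1a1, Sftpa1 and Sftpb. The estimate was 11.8% of UMIs in saline and 12.8% in NP for Retnlg-low cells, against 1.76% and 7.33% for Retnlg-high cells. In the Retnlg-high cells of NP, 1 cell held 4088 of 4721 UMIs on epithelial markers. Sftpc had a UMI in 11.1% of Retnlg-low and 12.3% of Retnlg-high cells in saline, and in 31.2% and 32.1% in NP. Whether the estimate reflects free RNA or a few cells with much epithelial RNA was not tested. Epithelial markers summed to 717 CPM in Retnlg-low and 108 CPM in Retnlg-high cells of saline, and to 846 and 484 CPM in NP. With the estimated free RNA subtracted the counts were 98 higher and 581 lower, and its part in single genes was not tested.

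The Retnlg-high cells also varied among themselves. In 4 bins of about equal size, from the lowest to the highest share of the 3 marker genes, Cd177 in saline had 226, 339, 414 and 488 CPM, and in NP 143, 270, 366 and 453 CPM. Ifitm6 went from 2247 to 4392 CPM in saline and from 1146 to 4836 CPM in NP. Il1b went the other way, from 8871 to 4551 CPM in saline and from 11613 to 4856 CPM in NP. The bins follow the share that divided the cells, and the genes were chosen after their values were seen. These orders are therefore a description. Gbp2, an interferon-inducible gene, had 51.0, 38.5, 35.5 and 29.5 CPM from the lowest to the highest bin in saline and 293, 218, 120 and 72.7 CPM in NP. The median UMIs per cell was larger in higher bins as well, from 6650 to 10483 in saline and from 6094.5 to 10568 in NP, and the part of depth in these orders was not tested.

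The study asked how NPs alter the immune cells of the lung, and the Retnlg-high cells of the NP and saline libraries were compared gene by gene. Interferon-inducible GTPase genes were higher in the NP library, and Saa3 and stefin A genes were lower. Of 4549 genes with a mean of at least 10 CPM, 48 were at least 2-fold higher in NP (1.06%) and 24 were at least 2-fold lower (0.528%). This split depended on the scaling, with 61 higher and 13 lower when centred on the median of all genes. It was 58 and 15 with TMM scaling. With an estimate of free RNA subtracted it was 41 and 165, where the lower genes were the majority. That estimate was taken from epithelial genes, and most of their UMIs in the NP cells lay in 1 cell. The median log2 ratio of all these genes was −0.13 in Retnlg-high cells and −0.12 in Retnlg-low cells. Of all compared genes, 30.4% had a ratio above 0.

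Interferon-γ is made mainly by T and NK cells, and through JAK kinases and STAT factors it switches on genes that carry a GAS element in their promoter and others with an interferon-stimulated response element (ISRE). Its targets include the guanylate-binding proteins (Gbp genes) and the immunity-related GTPases (Igtp, Irgm1, Irgm2, Ifi47), which attack the vacuoles of microbes inside cells, and the proteasome and transporter genes that feed MHC class I. To show what these promoters look like, the windows from 250 bases before to 50 bases after the start of 4 of these genes are printed from RefSeq (GRCm38.p6, plus strand). They lie at chr11:58199306-58199605 (Igtp), chr11:58214727-58215026 (Irgm2), chr3:142620413-142620712 (Gbp2) and chr11:49076337-49076636 (Ifi47). Capitals mark matches to GAS (TTCNNNGAA) or ISRE (GAAANNGAAA) on either strand.
Igtp: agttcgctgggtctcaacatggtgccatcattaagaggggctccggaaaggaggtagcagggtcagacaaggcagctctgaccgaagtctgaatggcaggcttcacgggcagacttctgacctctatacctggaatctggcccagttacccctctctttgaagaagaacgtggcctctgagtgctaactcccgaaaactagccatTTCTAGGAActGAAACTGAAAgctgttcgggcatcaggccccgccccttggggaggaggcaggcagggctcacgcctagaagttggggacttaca
Irgm2: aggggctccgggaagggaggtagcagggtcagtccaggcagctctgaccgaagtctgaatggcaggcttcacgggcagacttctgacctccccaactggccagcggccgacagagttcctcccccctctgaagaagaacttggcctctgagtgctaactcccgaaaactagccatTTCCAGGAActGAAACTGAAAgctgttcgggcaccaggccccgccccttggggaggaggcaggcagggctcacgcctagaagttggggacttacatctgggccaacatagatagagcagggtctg
Gbp2: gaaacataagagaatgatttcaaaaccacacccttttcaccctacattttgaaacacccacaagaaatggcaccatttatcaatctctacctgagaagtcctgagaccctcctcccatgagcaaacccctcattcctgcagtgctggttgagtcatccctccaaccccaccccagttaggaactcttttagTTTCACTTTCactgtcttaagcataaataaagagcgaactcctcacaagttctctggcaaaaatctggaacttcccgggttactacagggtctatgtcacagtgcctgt
Ifi47: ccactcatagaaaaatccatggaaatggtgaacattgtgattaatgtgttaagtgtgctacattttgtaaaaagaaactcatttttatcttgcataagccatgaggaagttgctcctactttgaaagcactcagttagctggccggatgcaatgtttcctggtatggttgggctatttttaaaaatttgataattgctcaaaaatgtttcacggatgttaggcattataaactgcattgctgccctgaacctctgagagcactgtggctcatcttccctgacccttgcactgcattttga
The windows of Igtp and Irgm2, neighbors on chromosome 11, both held a GAS match followed by an ISRE match, at positions −45 and −34 from the start in Igtp and −75 and −64 in Irgm2. Gbp2 held an ISRE match at −59, and Ifi47, the gene with the highest ratio of the list, held neither in this window. Of the 15 IFN-γ response genes compared, 13 had a window in the RefSeq table, of which 8 held a GAS or an ISRE match. Over all 32544 windows of the table, 8.33% held the GAS letters, 3.45% the ISRE letters and 11.3% at least 1 of them. A match is a description of the letters and not a test of binding.

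Ifi47 had 4.90 CPM in the Retnlg-high cells of the saline library and 52.1 CPM in those of the NP library, a log2 ratio of 3.41 (3.13 to 3.70). Igtp had 15.2 and 83.4 CPM, a log2 ratio of 2.46 (2.28 to 2.64). Gbp2 had 37.7 and 163 CPM, a log2 ratio of 2.11 (2.00 to 2.23). Each of these genes was several times higher in the NP library and low in the saline library. Irgm1, Gbp2b and Gbp7 had log2 ratios of 2.07, 2.05 and 1.74, and Irgm2 had 1.47. Igtp with Irgm2, and Gbp2 with Gbp2b, are close relatives, so how their reads were divided is uncertain. Irf1, a transcription factor of the interferon response, had 110 CPM in saline and 290 CPM in NP, a log2 ratio of 1.40 (1.32 to 1.47).

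The IFN-γ response list held 36 genes, of which 15 were compared. Their median log2 ratio was 1.47, beside −0.13 for all genes, and 10 of 15 were at least 2-fold higher in NP, beside 1.06% of all genes. Of the 15, 14 were higher (30.4% of all genes) and 1 was lower, at −0.82 with an interval below 0. No gene of the list was at least 2-fold lower. In the Retnlg-low cells the same genes had a median of 1.77, and the difference between the 2 classes was not tested. The cells with the most interferon-stimulated RNA had been set aside before, 235 in NP and 35 in saline, and with them kept the list median in the class was 1.65. Endothelial markers were also higher in the NP cells, with a summed level of 28.0 CPM against 10.5 CPM in saline (5 genes, led by Cldn5 at 3.27 and 8.72 CPM), and a UMI in 13.6% against 7.03% of cells. Endothelial cells carry interferon-inducible RNA as well, and their part in the result was not tested. The 1 cell with the most UMIs held 1.97% of the Ifi47 UMIs of the NP library and 0.881% of those of Gbp2, so these ratios did not rest on single cells.

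The antiviral type I interferon list (25 genes compared) had a median of 0.99, with 25 of 25 genes higher in NP (30.4% of all genes) and 11 of them at least 2-fold (1.06% of all genes). Isg15, Rsad2 and Ifit1 were used by the rule, and without them 22 of 22 genes were higher, 8 of them at least 2-fold, with a median of 0.86. Zbp1, a sensor of viral nucleic acid, had 23.5 CPM in saline and 89.4 CPM in NP, a log2 ratio of 1.93 (1.77 to 2.08). Ifi27l2a had 147 and 465 CPM, a log2 ratio of 1.67. Ifitm3, which blocks viral entry, had 2169 and 2600 CPM, a log2 ratio of 0.26, and Slfn1 and Slfn4 had log2 ratios of 0.28 and 0.18.

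For the MHC class I presentation list, which holds the class I heavy chains, their light chain and the peptide supply, 14 of 16 genes were higher in NP and 3 were at least 2-fold higher, with a median of 0.53, beside 30.4% and 1.06% of all genes. H2-K1, a class I heavy chain, had 106 CPM in saline and 259 CPM in NP, a log2 ratio of 1.29 (1.21 to 1.37). B2m, the light chain, had 603 and 900 CPM, a log2 ratio of 0.58, and H2-D1 had 2469 and 3410 CPM, a log2 ratio of 0.47. Tap1, the peptide transporter subunit, had a log2 ratio of 1.28, and the immunoproteasome genes Psmb8 and Psmb9 had 0.76 and 0.65. Tap1, Psmb8 and Psmb9 also stood in the IFN-γ response list, so these lists overlap. Of the class II list, 1 gene was abundant enough to be compared. This was Cd74, the invariant chain, at 10.5 and 36.7 CPM, with 34.1% of its NP UMIs in 1 cell, and without the top cell of each library its log2 ratio was 1.30.

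Genes of the TNF and NF-κB response were higher in NP by less. Of 32 genes compared, 30 were higher and 3 were at least 2-fold higher, beside 30.4% and 1.06% of all genes, with a median of 0.41. Cxcl2, a chemokine that draws neutrophils, had 1799 CPM in saline and 3426 CPM in NP, a log2 ratio of 0.93 (0.91 to 0.95). Nfkbia, the inhibitor of NF-κB, had 262 and 606 CPM, a log2 ratio of 1.21, and Tnfaip3, another inhibitor, had 9.65 and 24.1 CPM, a log2 ratio of 1.32. Il1b had 6162 and 7656 CPM, a log2 ratio of 0.31. The list that reports stress during tissue dissociation had a median of 0.08, and within it Fos, Junb and Dusp1 had log2 ratios of 0.49, 0.37 and 0.54 and Klf2 had −0.40. Osm, encoding oncostatin M, had 671 CPM in saline and 1001 CPM in NP, and the chemokine and cytokine list as a whole had a median of −0.02.

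**Figure D4:**
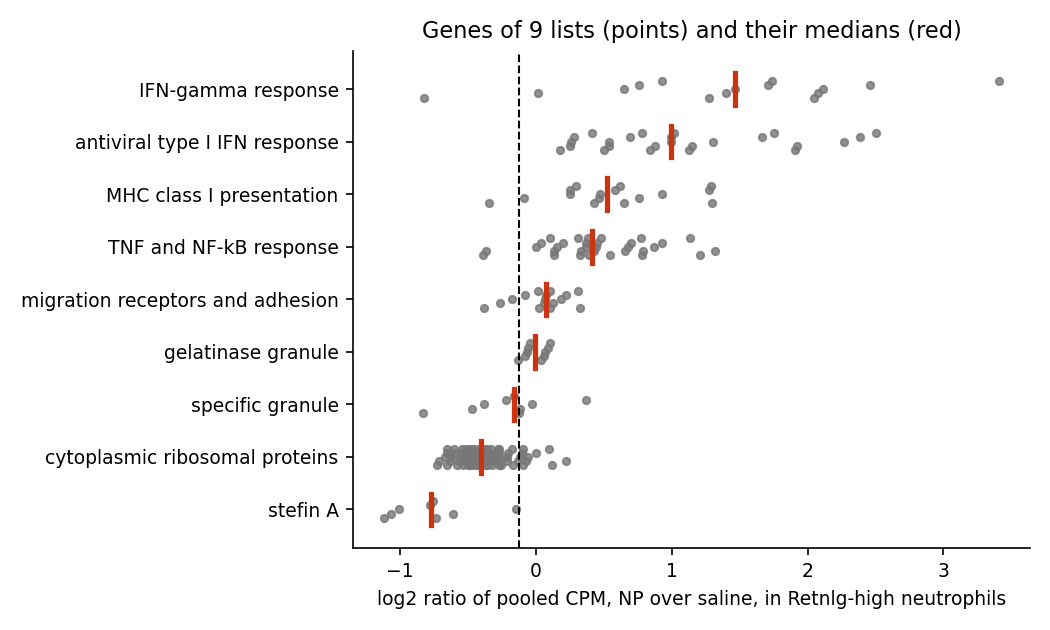
Log2 ratio of pooled CPM, NP over saline, in Retnlg-high neutrophils (x axis) for the compared genes of 9 lists (grey points, 1 for each gene); red bars are list medians and the dashed line is the median of all 4549 genes. The IFN-γ response list lies farthest right with a median of 1.47, and the stefin A list lies farthest left with −0.77 (Cstb, stefin B, included).

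Among genes with a mean of at least 20 CPM, the lowest NP over saline ratio after that of Scgb1a1, an airway epithelial gene, was that of Saa3, an acute phase protein of the serum amyloid A family. It had 1555 CPM in the Retnlg-high cells of the saline library and 231 CPM in those of the NP library, a log2 ratio of −2.75 (−2.81 to −2.69). In the Retnlg-low cells it had 4278 and 1611 CPM, a log2 ratio of −1.41. The Saa3 level was lower in NP in both classes. After thinning to 2000 UMIs, 26.8% of saline Retnlg-high cells (25.1% to 28.5%) and 5.99% of NP cells (4.64% to 7.58%) had an Saa3 UMI, against 6.59% and 2.14% of B cells, and before thinning the shares were 36.4% and 9.53%. Saa3 was thus found in a minority of the cells in both libraries. Within the saline library it had 2407 CPM in the lowest and 1014 CPM in the highest bin of the marker share, and within NP 567 and 71.0 CPM.

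Stefin A genes encode small inhibitors of cathepsin-type cysteine proteases and lie as a cluster of near copies. The 6 of them named here span 299 kb of chromosome 16 (16:36156811 to 36455392, GRCm38), with Stfa2l1 and Cstdc4 at one end and Stfa2 and Stfa3 at the other. Of 8 genes of the list that were compared, 0 were higher in NP and 3 were at least 2-fold lower, beside 0.528% of all genes, and the median was −0.77. The list also holds Cstb, which encodes stefin B and lies outside the cluster, at 142 and 128 CPM, a log2 ratio of −0.15. Without Cstb, 0 of 7 genes were higher and 3 were at least 2-fold lower, with a median of −0.78. Cstdc5, with the most UMIs of the list, had 13907 CPM in saline and 8220 CPM in NP, a log2 ratio of −0.76 (−0.77 to −0.75). Stfa3 had 1761 and 811 CPM, a log2 ratio of −1.12, Stfa2 had −1.07 and Cstdc6 had −1.01. These 3 genes stayed past 2-fold under 23, 22 and 16 of 25 alternatives and were lower in NP under all 25. All compared genes of the list were lower in the NP library, and reads of near copies can be divided among them in more than 1 way. In Retnlg-low cells the list median was −0.55 (−0.71 without Cstb), and Stfa2 had 1602 and 891 CPM there. Granule-high cells had 2358 CPM of Stfa2 in saline and 1032 CPM in NP, so the lower Stfa2 level of the NP library was seen in these 3 classes. In the interferon-high cells, 35 in saline and 235 in NP, Stfa2 had 774 and 759 CPM, a log2 ratio of −0.03 (−0.31 to 0.26).

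Other genes with lower levels in NP had varied roles. Casp6, an executioner caspase, had 85.3 CPM in saline and 26.1 CPM in NP, a log2 ratio of −1.71 (−1.90 to −1.52). Kit, the stem cell factor receptor, had 44.0 and 17.5 CPM. Plin2, the coat protein of lipid droplets, had 358 and 164 CPM, a log2 ratio of −1.13, and Acaa2, an enzyme of mitochondrial fatty acid oxidation, had 29.6 and 13.2 CPM. Igfbp6 had 456 and 230 CPM. For these 5 genes the ratio in Retnlg-low cells had the same sign, at −1.12, −1.23, −0.73, −1.01 and −0.49. Cytoplasmic ribosomal protein genes had a median of −0.41 over 82 genes, of which 3 were higher in NP beside 30.4% of all genes. That median ranged from −1.07 to −0.28 over 25 alternatives. Nuclear genes of oxidative phosphorylation had a median of −0.17, close to the −0.13 of all genes.

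**Figure D5:**
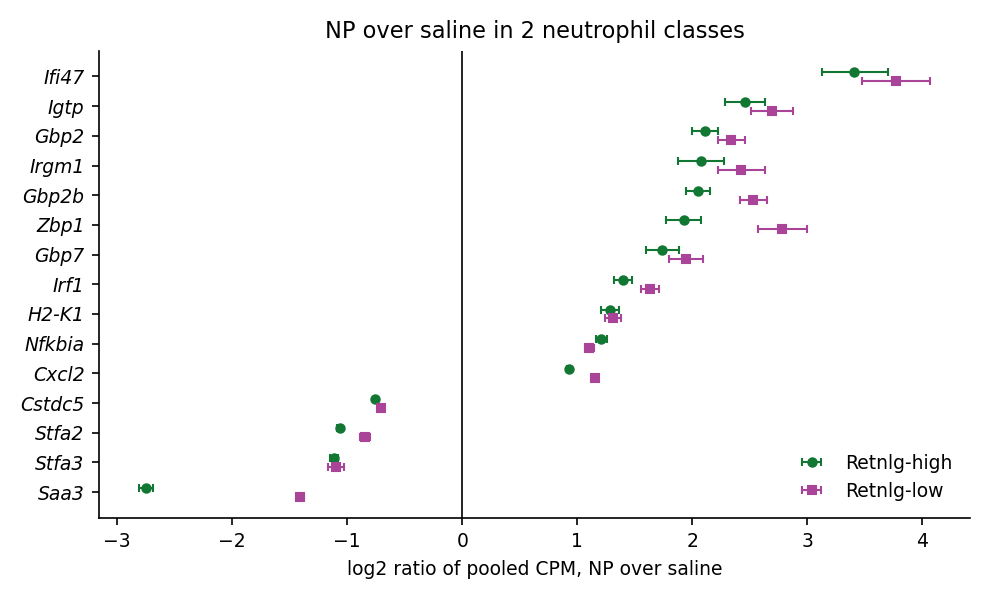
Log2 ratio of pooled CPM, NP over saline (x axis), for 15 genes in Retnlg-high (circles) and Retnlg-low (squares) neutrophils; whiskers are exact 95% intervals of the counting error. The interferon-inducible genes are above 0 and the stefin A genes and Saa3 below 0 in both classes, and Saa3 is at −2.75 in Retnlg-high and −1.41 in Retnlg-low cells.

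The 10 gelatinase granule genes had ratios between −0.13 and 0.10, with Mmp9 (gelatinase B) at 754 CPM in saline and 788 CPM in NP. Specific granule genes had a median of −0.16 and a range of −0.83 to 0.37, beside −0.13 for all genes. Of the 9, 8 had an interval below 0 (40.0% of all genes), and 5 of 6 without the rule genes Ngp, Camp and Ltf, with Lcn2 at 5251 and 4689 CPM and Lyz2, a lysozyme, at 1958 and 2533 CPM. Chil3, a chitinase-like protein, had the lowest ratio of that list, at 46.3 and 26.0 CPM. Migration and adhesion receptors had a median of 0.07, with Cxcr2, the main receptor for neutrophil chemokines, at 947 and 1077 CPM and Csf3r, the G-CSF receptor, at 1138 and 1157 CPM. The NADPH oxidase, glycolysis and BCL2 family lists had medians of −0.08, −0.03 and 0.13. None of the genes in these 6 lists was at least 2-fold higher or lower, which is near the 1.06% and 0.528% of all genes. Among 8 suppressive myeloid genes 1 was at least 2-fold higher (1.06% of all genes), Ptgs2, which makes prostaglandin precursors, at 69.6 and 153 CPM. The median of the 8 was 0.08 and the lowest ratio −0.82. Of them 5 were higher (30.4% of all genes) and 3 had an interval below 0 (40.0% of all genes). Of the azurophil granule and proliferation lists 1 gene each was compared, Prtn3 with 15.1 and 9.02 CPM (log2 ratio −0.74) and Hmgb2 with 1408 and 1542 CPM.

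Markers of other cells were examined in the Retnlg-high cells of each library. Monocyte markers (8 genes) summed to 126 CPM in saline and 204 CPM in NP, led by Ly6c2 at 60.4 and 129 CPM. Epithelial markers (5 genes) summed to 108 and 484 CPM. In saline most of this was Scgb1a1, at 78.6 and 6.36 CPM, with a UMI in 35.0% of saline and 4.58% of NP cells. The NP value was carried by Sftpc, the surfactant protein of alveolar type II cells, at 25.1 and 421 CPM, of which 1 cell held 88.0% in NP. Without the top cell of each library the log2 ratio of Sftpc was 1.66 in place of 4.07, so 1 cell decided its value. Erythroid markers (5 genes, led by Hbb-bs) summed to 850 and 2403 CPM, with 97.6% and 99.5% in 10 cells. The T cell list (4 genes) had 51.7 and 66.0 CPM, nearly all from Cd3d at 49.8 and 64.2 CPM, while Cd3e, which the rule used, had 0.156 and 0.205 CPM. Interstitial macrophage markers (4 genes) summed to 108 CPM in saline and 71.7 CPM in NP, with at least 10 UMIs in 82 and 18 cells. Alveolar macrophage markers (6 genes) summed to 14.9 and 18.0 CPM, with a UMI in 9.60% and 7.10% of cells and up to 44 and 60 UMIs in 1 cell, and eosinophil markers (4 genes) to 11.2 and 7.38 CPM, both led by Siglecf at 10.7 and 6.97 CPM. The B cell, NK cell, dendritic cell and basophil lists (4, 4, 6 and 4 genes) summed to at most 5.21 CPM each in either library. The rule allowed at most 1 UMI on F13a1, Ccr2, Cd79a, Cdh5 and Cd3e together. The selection thus held the monocyte, B cell, endothelial and T cell sums low in part, and these are a description. Marco, Siglech, Prg2 and Epx, defining genes of alveolar macrophages, plasmacytoid dendritic cells and eosinophils, had no UMI in the Retnlg-high cells of either library, a count of 0 that allows up to 3 UMIs of 25705847 in saline and of 9753235 in NP. Platelet markers summed to 2.49 and 10.5 CPM and stromal markers to 18.1 and 7.48 CPM. The part of such RNA in the ratios above was not tested.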

How the data were processed

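Single-cell RNA was measured in 2 libraries of pooled lung cells, 1 saline and 1 NP, each with 32285 genes. Red cells had been lysed. The authors made the deposited UMI counts with bcl2fastq and Cell Ranger 6.0 by the submitters' processing notes (the matrix header names version 4) on mm10, and no cell selection had been made: 2114090 saline and 2132008 NP barcodes were listed. The totals were 91168129 and 90081747 UMIs. Gene positions are those of GENCODE M21 (GRCm38), which listed 99.8% of the identifiers.

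Cells were chosen by the thresholds given with the results, and doublets were kept (Scrublet marked 1 of 8662 saline cells, so it did not work there, and 311 of 8333 NP cells). UMIs of a class were summed in each library and scaled to CPM. Ratios set counts under 3 to 3 and carry exact binomial intervals, shares carry Clopper-Pearson intervals and share ratios log-normal ones. Genes compared had a mean of at least 10 CPM over the classes compared. The members and the 20 gene lists, written by hand, were chosen with earlier results of these data known.

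Genes were named by a rule: the rule and marker genes, the 15 genes with the most UMIs, the 10 highest and 10 lowest ratios of each comparison with a mean of at least 20 CPM, the 4 genes with the most UMIs of each list, and the most abundant marker of each other cell type. Others, such as Tap1, H2-K1, Irgm2, Nfkbia, Tnfaip3, Ptgs2, Chil3, Cstb and the genes of the 4 bins, were chosen after their values were seen. Some genes under the rule are not reported here. Simulated counts were used to check the intervals. Alternatives changed the gene, mitochondrial and marker limits, the dividing share, thinning, doublets, scaling, the CPM minimum, the count floor and free RNA. Leaving out S100a8 and S100a9 from totals, and leaving out the top cell of each gene, were chosen after seeing the data. Scrublet ran in scanpy 1.11.5 with anndata 0.12.19, tables were made with pandas 2.3.3, intervals with scipy 1.17.1 and numpy 2.4.6, and plots with matplotlib 3.10.9, in Python 3.11.15.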

Additional observations from a re-analysis of the deposited data

Results flagged for a closer look

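Marker genes of other cell types had ratios past 2-fold in opposite directions in the Retnlg-high and Retnlg-low cells, and the difference was not tested. Hbb-bs, a hemoglobin gene, had a log2 ratio of NP over saline of 1.40 in Retnlg-high cells (423 to 1116 CPM) and −2.69 in Retnlg-low cells (968 to 150 CPM), with 33.5% of the saline and 36.5% of the NP UMIs of the Retnlg-high cells in 1 cell. Dcn, a stromal gene, had −3.80 in Retnlg-high cells (403 UMIs in saline, 52.4% of them in 1 cell, and 11 in NP) and 2.48 in Retnlg-low cells (6 and 19 UMIs). Gzma, a gene of NK and T cells, had −2.07 in Retnlg-high cells (122 UMIs in saline, 57.4% in 1 cell, and 11 in NP) and 1.39 in Retnlg-low cells (154 and 229 UMIs).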

How the results depend on the processing

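The list median of IFN-γ genes stayed between 1.34 and 1.74 under all 25 alternatives, and the share of Retnlg-high cells was lower in NP under all 16 that apply to it, of which a median of its own in each library fixes the value by its construction. Within neutrophils its log2 ratio moved from −0.42 to −0.52 with interferon-stimulated genes under 0.15% and to −0.17 with a median of its own in each library. Among all cells it moved from −1.21 to −1.06 with at most 3000 detected genes, −1.10 with a mitochondrial limit of 5%, −1.31 with the interferon limit of 0.15% and −0.96 with separate medians. The 72 genes past 2-fold between NP and saline became 30 at a mean of 50 CPM and 309 at 2 CPM. They became 206 with free RNA subtracted, estimated from epithelial genes at 7.33% of UMIs in NP and 1.76% in saline. In NP 1 cell held 4088 of 4721 UMIs on epithelial markers, so that estimate rested mostly on 1 cell. The cause of these changes was not tested. The 540 genes past 2-fold against Retnlg-low cells became 301 with S100a8 and S100a9 at 10% or more, 266 centred on the median, 300 with TMM scaling, 155 at 50 CPM and 1274 at 2 CPM. TMM gave 245 higher and 55 lower, in place of 67 and 473, centring gave 187 and 79, and leaving S100a8 and S100a9 out of the totals gave 132 and 259. Genes at least 2-fold higher and lower in NP numbered 61 and 13 with centring, 58 and 15 with TMM and 41 and 165 with free RNA subtracted, in place of 48 and 24. Lyz1 in NP changed from −6.14 against Retnlg-low cells to 4.49 with the granule limit at 0.5%, 4.44 with interferon-high cells kept, 4.37 with equal library weight and 4.38 with separate medians, and the cause was not tested. Of 1691 other values of 68 results past 2-fold, 1687 kept their sign and 1663 stayed past 2-fold. Of the list medians near 0, those of the gelatinase granule, chemokine, glycolysis, NADPH oxidase and S100 lists kept their sign under 14, 18, 22, 23 and 24 of 25 alternatives. Scrublet acted almost only on NP cells. No paired analysis was possible because there was 1 library per group. Of 32285 genes, 4549 reached the mean of 10 CPM. The differences between treatments cannot be told apart from differences between libraries.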
